A study of Homo sapiens with 4 samples.

Results

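NEAT1 is a long non-coding RNA that stays in the nucleus, and 8 of the 275 m6A sites that the authors deposited for K562 chromatin-associated RNA lay in it. A site was taken as a NEAT1 site when its listed position fell on the plus strand of chromosome 11 between 65422774 and 65445540 on hg38, which is the span of NEAT1 (ENSG00000245532.11) in GENCODE release 44. The levels played no part in this rule, but the gene and the isoform split were chosen with earlier results of these data known. The study compared input RNA with RNA pulled down by purified RBFOX2 protein, and each was carried through m6A-SAC-seq with MjDim1 treatment and without it, which gives 4 libraries with 1 library per condition. All 4 came from wild-type K562, a human chronic myeloid leukaemia line, although the labels give the cell type as a hepatoma line. RNA was isolated from the chromatin fraction and depleted of ribosomal RNA, so soluble RNA is not represented. The table lists 2 m6A levels for each site but does not say which library either level belongs to, and here they are called the first and the second level. No read counts are given, so the coverage of a level is unknown, and no level has a replicate.

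NEAT1 is made in a short form and a long form from the same start site. The short form is cleaved and polyadenylated close to the 5′ end, whereas the long form runs on and is not polyadenylated in the usual way. The long form is the scaffold of paraspeckles, nuclear bodies that gather RNA-binding proteins such as SFPQ and NONO around it, and the short form is found in them but does not build them. m6A is written mostly by METTL3–METTL14 at DRACH, a 5-mer whose middle A is methylated, in which D is any base but C, R a purine and H any base but G. In m6A-SAC-seq the enzyme MjDim1 places an allyl group on m6A and iodine converts the product, so that reverse transcription misincorporates at that adenine. The share of mutated reads at the adenine, in percent, is the level.

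The sequences of the 8 sites are shown because the motif class and the place in the transcript set the groups compared here. Each line gives 29 nt of the plus strand of hg38 written as RNA, 5′ to 3′, and the capitals mark the 5-mer with the site at its middle A.
Site 1, chr11:65423929-65423957: aaaaugcuucauGGACCgugguuuguuac
Site 2, chr11:65424576-65424604: uuuaaaugccuuAGACUggggauauauua
Site 3, chr11:65426277-65426305: guucuuaaccaaUGACUuggggaugaugc
Site 4, chr11:65426288-65426316: augacuuggggaUGAUGcaaacaauuacu
Site 5, chr11:65426390-65426418: aacuguaaaaguAGAUGguugaaaguacu
Site 6, chr11:65430603-65430631: gcuuauacuaaaGGAUAuguagcccaucu
Site 7, chr11:65442013-65442041: gccauccgaggaAGAUGuaagguuucgug
Site 8, chr11:65444008-65444036: aucggcagguugGGACUuagauggccgug

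Sites 1, 2, 3 and 8, each with GAC at the centre of its 5-mer, are DRACH sites, and sites 4 to 7, each with GAU there, are not. DRACH thus made up 4 of the 8 NEAT1 sites (50%), beside 93 of all 275 (33.8%). All 8 adenines followed a G, as did 90.9% of all listed sites. GAC held 4 of the 8, beside 36.4% of all listed sites, and GAU the other 4, beside 44.4%. Among the adenines of NEAT1 8.71% lie in GAC or GAU, whereas 80.7% of all listed sites do. All 8 listed 5-mers equal those of hg38, and the 31 nt around each site occur at 1 place in the genome, so reads over these sites are not shared with an exact copy elsewhere.

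The sites fell into a group of 5 near the 5′ end and 3 scattered sites further on. The short isoform NEAT1-201 (ENST00000499732.3) has 2 exons and ends at 65426457, 3684 nt from the gene start to its end, and the long isoform NEAT1-202 (ENST00000501122.2) is a single exon of 22743 nt. Sites 1 to 5 lay in exon 2 of NEAT1-201 and also in the exon of NEAT1-202, whereas sites 6 to 8 lay in NEAT1-202 alone of the 9 annotated transcripts. RNA of both forms covers the first part, so a level at sites 1 to 5 is a mixture over the isoforms, and the table cannot separate them. In this shared part, which is 16.2% of the gene, the density was 1.36 listed sites per kb, against 0.157 per kb in the part that only the long isoform has, an 8.63-fold difference between the parts. DRACH itself was at 18.2 motifs per kb in the shared part and 15.6 per kb in the long-only part. Coverage of the parts is not given, and its share in the difference was not tested.

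**Figure D1:**
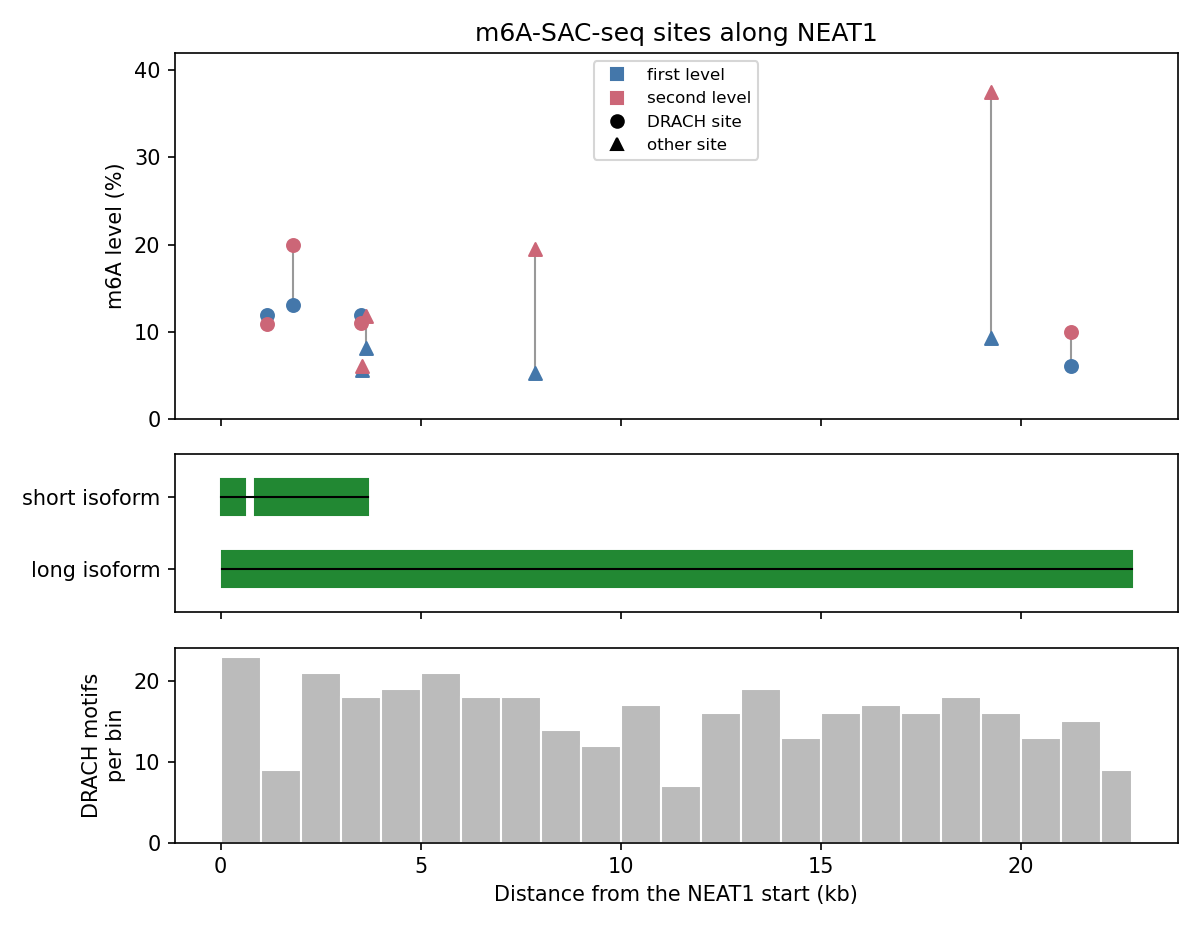
NEAT1 from its annotated start, in kb. Top: first level (blue) and second level (red) of each site in percent, joined by a line, with circles for DRACH sites and triangles for others; middle: exons (green) of the short isoform NEAT1-201 and the long isoform NEAT1-202; bottom: number of DRACH motifs per bin of 1000 nt, the last bin being shorter. Of the 8 sites, 5 lie in the part shared by both isoforms, while DRACH motifs occur in every bin.

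Sites 1 and 2 stood apart from the rest of the shared part, 1169 and 1816 nt from the gene start. Site 1, a GGACC at 65423943, had levels of 11.9% and 10.9%, a ratio (second level divided by first) of 0.92. Site 2, an AGACU at 65424590, had levels of 13.1% and 20%, a ratio of 1.53. Site 2 had the highest first level in NEAT1, but it ranked only 109 of 275 among all listed sites. Site 1 lay in an exon of 6 of the 8 annotated transcripts that span it and in an intron of the others, NEAT1-204 and NEAT1-206. Site 2 was exonic in all 7 transcripts that span it.

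Sites 3, 4 and 5 lay within 113 nt of each other at the 3′ end of the short isoform. They were 166, 155 and 53 nt before the annotated end of NEAT1-201. Other short transcripts over this region end between 65426385 (NEAT1-205, before site 5) and 65426513 (NEAT1-208 and NEAT1-209), so these distances depend on the transcript. At the UGACU of site 3 (65426291) the levels were 11.9% and 11.0%, a ratio of 0.92. The UGAUG of site 4 (65426302) had 5.57% and 6.06%, a ratio of 1.09. For the AGAUG of site 5 (65426404) they were 8.13% and 11.8%, a ratio of 1.45. Sites 3 and 4 are 11 nt apart, so the same read can cover both, and they are not independent of each other. The adenine of a further GAUG lies between them, 3 nt before site 4, and is not listed.

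The long-only part held the pair of NEAT1 sites with the largest differences, sites 6 and 7. Site 6, a GGAUA at 65430617 and 7843 nt from the gene start, had levels of 5.29% and 19.5%, a ratio of 3.69. Site 7, an AGAUG at 65442027, had 9.22% and 37.5%, a ratio of 4.07 and a rise of 28.3 percentage points from the first level to the second. Site 8, a GGACU at 65444022 and 1518 nt before the end of the long isoform, had 6.06% and 10.0%, a ratio of 1.65. By the ratio, sites 7 and 6 ranked 33 and 37 of all 275 sites, so higher ratios were found elsewhere in the list. The authors' limit on the number of mutated reads favours high levels among thinly covered adenines. Coverage of these sites is not given, and its share in their ratios was not tested.

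**Figure D2:**
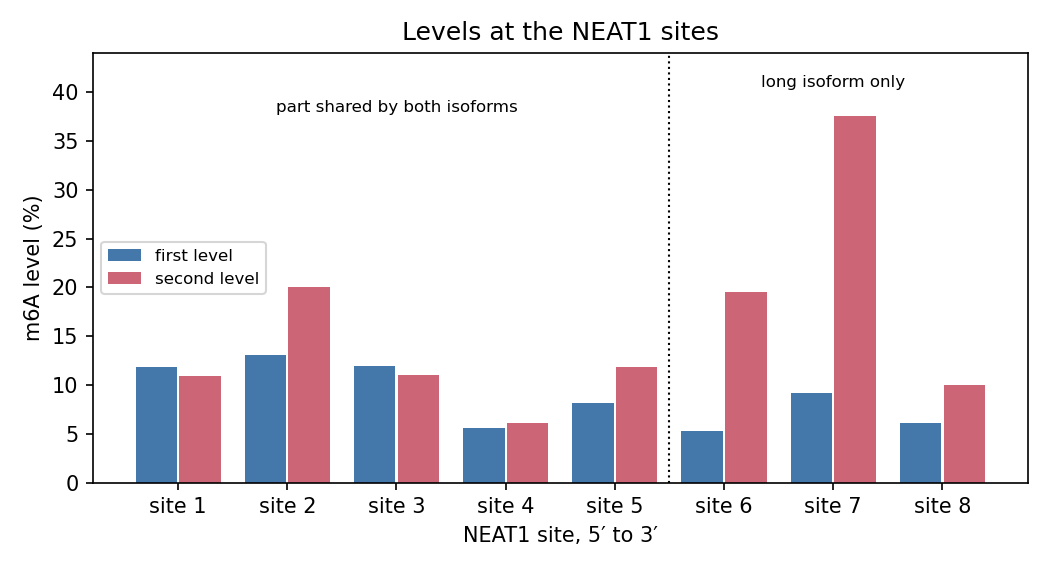
First level (blue) and second level (red) in percent at each NEAT1 site, in order from 5′ to 3′, with no error bars because each level comes from the table without replicates. The second level reached 37.5% at site 7 and 19.5% at site 6, and it was below the first at sites 1 and 3.

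The second level was above the first at 6 of the 8 NEAT1 sites (75.0%), beside 85.8% of all listed sites, and NEAT1 held 2 of the 38 sites at which it was lower. A ratio of at least 2 was found at 2 of the 8, against 42.5% of all listed sites, and a ratio of at least 1.5 at 4 of the 8, against 59.6%. The second level was at least 5 percentage points above the first at 3 of the 8, against 62.2%. The median ratio was 1.49 in NEAT1 and 1.73 over all listed sites. The median first level was 8.68% in NEAT1 (range 5.29% to 13.1%) beside 10.9% over all sites, and the median second level was 11.4% (range 6.06% to 37.5%) beside 22.7%. The first levels within NEAT1 spanned 2.47-fold and the second levels 6.19-fold. Site 7 set the upper end of the second levels, and the next highest was 20%, at site 2. Without site 7 the second levels ran from 6.06% to 20%, still a wider span than that of the first levels. No listed level is below 5.02%, and this floor limits how wide either span can be. No test was made over sites, since sites of 1 RNA do not replicate a condition.

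Divided by isoform, the ratios did not overlap. In the shared part they ran from 0.92 to 1.53 with a median of 1.09. In the long-only part they ran from 1.65 to 4.07 with a median of 3.69. Motif class differed over this split, with DRACH at 3 of the 5 shared and 1 of the 3 long-only sites. By class the ratios overlapped, at 0.92 to 1.65 (median 1.23) for DRACH and 1.09 to 4.07 (median 2.57) outside it. Over all listed sites the median ratio was 1.57 for the 93 DRACH sites and 1.89 for the 182 others. The share of place and of motif class in the ratios was not tested. All 3 long-only sites and 1 of the 5 shared sites had a ratio of at least 1.5. Of all listed sites 59.6% reach it. Site 8, with the lowest long-only ratio, ranked 143 of 275, so a ratio this high is common in the list. The split was chosen with earlier results of these data known, so the lack of overlap was not a test. The first levels overlapped between the parts, at 5.57% to 13.1% and 5.29% to 9.22%, and so did the second levels, at 6.06% to 20% and 10.0% to 37.5%. The gap between the highest shared ratio, 1.53 at site 2, and the lowest long-only ratio, 1.65 at site 8, is small, and without the coverage it cannot be said whether it exceeds counting error.

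**Figure D3:**
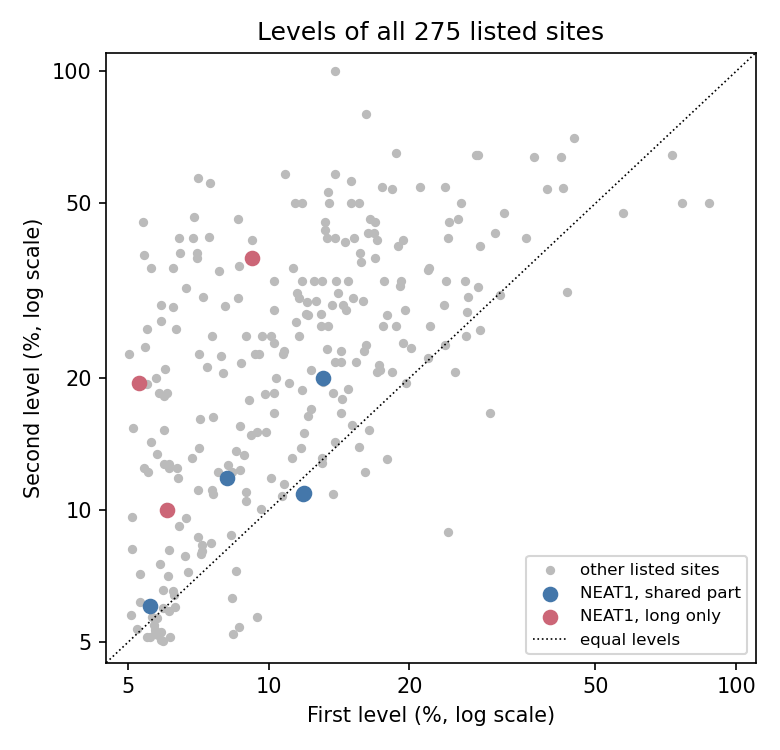
Second level against first level in percent, both on log axes, for the 275 listed sites, with NEAT1 sites of the shared part in blue and of the long-only part in red; the dotted line marks equal levels. Sites 1 and 3 almost coincide just below the line, and all 3 long-only sites lie above it.

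Sites that share a 5-mer can be set beside each other, but in NEAT1 only sites 5 and 7 do, without replicates. No cause of their difference was tested. AGAUG occurs at 30 places in NEAT1, 11 of them in the shared part, and 2 are listed, site 5 in the shared part and site 7 in the long-only part. Their first levels were close, 8.13% and 9.22%, but the second level of site 7 was 3.17-fold that of site 5. Outside the 5-mer their sequences have little in common, with 9 of 29 positions alike including those 5. Over the 48 AGAUG sites in the table the median ratio was 2.12, and by the ratio site 7 ranked 7 and site 5 ranked 34 of these 48.

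For the other 5-mers with several sites in the table, the NEAT1 sites ranked from the middle to the bottom by the second level. Site 8 had the lowest second level of the 23 GGACU sites, ranking 23, while its ratio ranked 10. Site 3 had the lowest ratio of the 8 UGACU sites and ranked 7 by the second level, which had a median of 40.8% over these sites. Site 2 was near the middle of the 35 AGACU sites, at rank 16 by the ratio and 19 by the second level. Site 4 ranked 18 of the 23 UGAUG sites by both measures. Sites 1 and 6 were the only GGACC and the only GGAUA in the table, so there was nothing to set them beside.

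Most of the motifs in NEAT1 were not listed. The gene has 365 DRACH motifs on its own strand and 4 were listed (1.10%), 3 of 67 in the shared part and 1 of 298 in the long-only part. In the 11410 nt between sites 6 and 7 no site was listed, although this stretch holds 169 DRACH motifs, 8 of them GGACU and 8 AGACU, and 9 AGAUG. Of the 19 GGACU in NEAT1 only site 8 was listed, and of the 22 AGACU only site 2. An AGAUG stands in the printed sequence of site 8, with its middle A 6 nt after the site, and is not listed either. An adenine that is missing from the table may have been unmethylated, too thinly covered or removed by the authors' filters, and these cannot be told apart.

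RBFOX2 recognizes the sequence UGCAUG, and more loosely GCAUG. NEAT1 holds 27 GCAUG, 3 in the shared part and 24 in the long-only part. The motif was searched on the NEAT1 strand. For sites 4, 6 and 7, 3 of the 8, a whole GCAUG lay within 50 nt, beside 33.5% of all listed sites. It lay within 100 nt of 5 (sites 3 to 7), beside 46.2%, and within 20 nt of 0, beside 12.4%. These are shown because they are the GCAUG nearest to a site, with GCAUG in capitals, as RNA of the plus strand of hg38.
Near sites 3, 4 and 5, chr11:65426334-65426362: uguauuagucacGCAUGuauggggaagua
Near site 6, chr11:65430571-65430599: gaaugaaugauuGCAUGauuuuaugccau
Near site 7, chr11:65442051-65442079: agagccuagcagGCAUGuggggugcccag
The same GCAUG stands between sites 4 and 5, with its middle base 46 nt after site 4 and 56 nt before site 5. The GCAUG at site 6 is centred 32 nt before it and is part of UGCAUG. This was the only UGCAUG within 100 nt of a NEAT1 site, 1 of 8, whereas 17.5% of all listed sites had one within 50 nt and 24% within 100 nt. The GCAUG at site 7 is centred 38 nt after it. GCAUG lay within 50 nt of sites 6 and 7, with the highest ratios, and of site 4, with a ratio of 1.09. A link between GCAUG and the ratio was not tested. For sites 1, 2 and 8 the nearest GCAUG was 392, 1039 and 1233 nt away. A match to GCAUG is a description of sequence and was not tested as a binding site.

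The base composition around the sites varied as well. In the 101 nt centred on each site the share of G and C ran from 32.7% at site 3 to 60.4% at site 7, and it was 33.7% at site 6. Sites 6 and 7 were the pair with the highest ratios, and a link between base composition and the ratio was not tested.

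Of the 5 other genes that held at least 5 listed sites, MALAT1 and XIST had median ratios closest to that of NEAT1. They differed from it by 0.45 and 0.47 on the log2 scale. LINC00534, CCDC26 and ENSG00000286251 were close behind, at 0.50, 0.51 and 0.60. MALAT1 and XIST were picked by the ratio, so their nearness to NEAT1 in it is not a result. MALAT1, a nuclear speckle RNA encoded downstream of NEAT1 on the same strand, had 26 sites with ratios from 0.60 to 1.89 and a median of 1.09. XIST, the RNA that coats the inactive X chromosome, had 6 sites with ratios from 1.11 to 3.25 and a median of 2.07. All 5 NEAT1 sites of the shared part fell inside the range of MALAT1, and 0 of the 26 MALAT1 sites reached the ratio of site 6. The ratios in NEAT1 spanned 4.44-fold from lowest to highest, in MALAT1 3.13-fold and in XIST 2.94-fold. LINC00534, another of these 5 genes and with 7 sites, had a wider span than NEAT1, 8.69-fold. CCDC26, with 8 sites, had ratios from 1.52 to 6.04, and alone of the 5 genes it held a ratio above that of site 7. For the sites in lncRNA genes other than NEAT1, 93 in all, the median ratio was 1.44, close to the 1.49 of NEAT1 as a whole. This pool mixes unlike genes, since it includes the 26 MALAT1 sites with their median of 1.09. The medians of XIST, LINC00534, CCDC26 and ENSG00000286251 ran from 2.07 to 2.26.

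**Figure D4:**
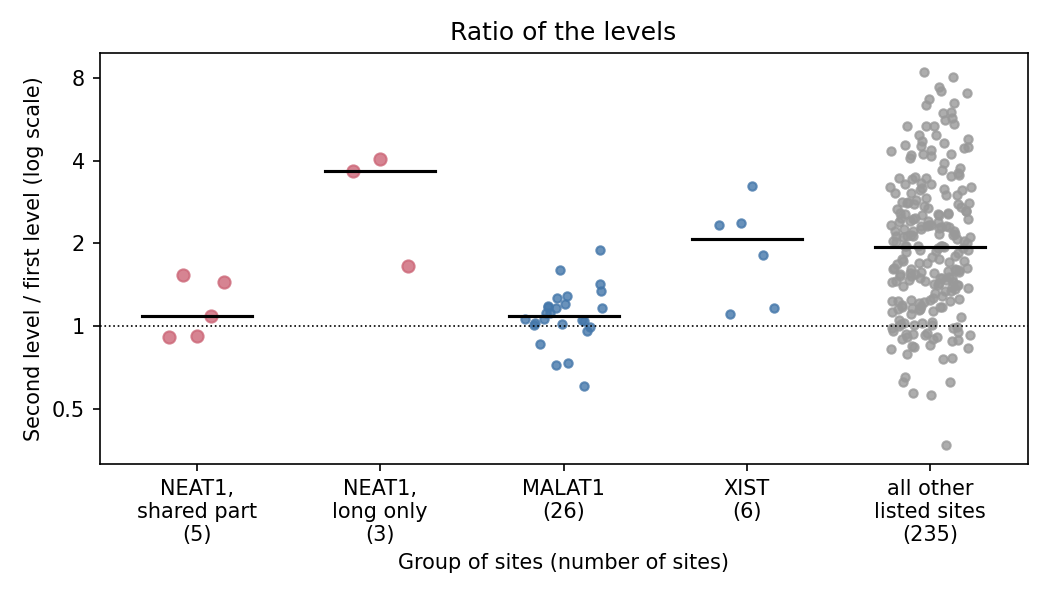
Second level divided by first, on a log2 axis, for each site of NEAT1 (shared part and long-only part), MALAT1, XIST and the remaining listed sites; points are sites, black bars are medians, and the dotted line marks equal levels. NEAT1 sites of the shared part, from 0.92 to 1.53, sit among the MALAT1 sites, and sites 6 and 7 lie above all 26 of them.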

How the data were processed

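The samples were 4 m6A-SAC-seq libraries of K562 chromatin-associated RNA. Per the methods and the submitters' processing notes, the authors trimmed adapters with Cutadapt 2.10, removed duplicates by molecular identifiers with BBMap, aligned to hg38 with STAR 2.7.3a and called mutations with VarScan. They kept adenines by limits on P value, read coverage, number and share of mutated reads, and the excess over the untreated library. Low-level adenines are therefore missing, and thinly covered adenines are missing or listed only at a high level. No level in the table is below 5.02%. The deposited table gives 2 levels in percent per site and their ratio, equal to the second level divided by the first at every site. Columns of single samples that were left unused numbered 0. Depth is unknown, so no interval was set.

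NEAT1 sites were taken by position and placed in GENCODE release 44 transcripts with Python 3.11.15 and numpy 2.4.6. The short isoform was NEAT1-201. Motifs were searched in hg38 on the transcript strand, and the counting was tested on simulated sequence. Exact copies of 31 nt were counted on both strands. All NEAT1 sites are described. Other genes were named by nearness of median ratio among genes with at least 5 sites. No test was made: 1 library stands behind each condition. The gene, the isoform split and the motifs were chosen with earlier results of these data known. Alternatives were 1 site per cluster within 50 nt, other cut-offs, means, motifs, windows and transcript ends. Figures were drawn with matplotlib 3.10.9.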

Additional observations from a re-analysis of the deposited data

How the results depend on the processing

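Of 26 alternative values, 20 stayed within 1.5 times a count or within 1 SD between sites of a median. These include the median ratio with each site left out in turn, which can move little. The SD between sites is also wide, so this tally is no measure of robustness. The median ratio of NEAT1 was 1.45 to 1.53 when each site was left out in turn and 1.63 as a mean of log2 ratios. The count of sites with the second level above the first fell from 6 to 3 when a rise of at least 5 percentage points was asked for (62.2% of all listed sites pass it), and the count at a ratio of at least 2 went from 2 to 4 at a ratio of at least 1.5. Taking the nearest annotated transcript end, that of NEAT1-204 at 65424404, left 1 site before the end in place of 5, and that site lies in an intron of NEAT1-204, whose exons hold 0. GCAUG lay within 20 nt of 0 sites, within 50 nt of 3 and within 100 nt of 5, and UGCAUG within 50 nt of 1. These changes follow from the wider or narrower rule itself. No paired analysis was possible because each condition has 1 library and the table names no library. Depth limits every value: without read counts, no difference between levels could be set against counting error, and 5 of the 8 first levels lie below 10%, beside 45.5% of all listed sites.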
